A study of Mus musculus with 6 samples.

Results

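The genes named Ube or Uba followed by a digit encode the enzymes that activate and hand on ubiquitin and its relatives, and 44 of the 15705 genes in the deposited table of splicing scores carry such a symbol. By what they encode, 6 are activating enzymes (E1), 29 are conjugating enzymes (E2), 2 are E2 variants without the catalytic cysteine, 3 are E3 ligases of the Ube3 group and 2 are E4 chain-extending enzymes. The symbol rule took in 2 further genes that were not sorted into these classes, among them Ube2cbp, which encodes a protein that binds an E2. The rule takes members by symbol alone and uses no measured value, but it was chosen with earlier results of these data known.

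In each pathway of this kind an E1 uses ATP to load the small modifier onto a cysteine, an E2 receives it, and an E3 brings the loaded E2 to the protein to be marked. An E4 lengthens a ubiquitin chain that has been started. Neurons use ubiquitin marking for protein turnover at synapses and along axons, and loss of maternal UBE3A causes Angelman syndrome in humans.

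RNA was sequenced from mouse cortical neurons carrying N40K and from control neurons, with 3 libraries in each group. The study concerns U1 snRNP, the particle that marks where introns begin, in Alzheimer's disease, and N40K is an N-terminal piece of its protein U1-70K. All cultures came from C57BL/6 embryos at embryonic day 18 and received lentivirus after 7 days in vitro, for 3 days. The N40K neurons received FCK1.3GW-N40K, in which a short CaMKII promoter drives N40K, and the control neurons received FCK1.3GW, in which the same promoter drives EGFP. Both vectors also carry WPRE and long terminal repeats, and the CaMKII promoter is known to be most active in excitatory neurons. Whether replicates were separate cultures is not stated in the labels, so the p-values measure only how far these libraries differ, and that spread may be a technical one.

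The deposited value, Sd, was taken to be a splicing deficiency score, in which unspliced RNA of a gene is set against its spliced RNA and a higher score means less complete splicing. It is no measure of expression, so the labelled cell type could not be checked by the level of its markers. All 8 neuronal marker genes on the list had a score, and so did 4 of 4 astrocyte, 3 of 4 oligodendrocyte and 3 of 4 microglial markers. None of the 8 neuronal and 4 astrocyte markers passed the limma test (at an unadjusted p under 0.05, 1 neuronal marker was higher and 0 astrocyte markers differed). Over the 3 scalings, each with and without the pseudocount, 1 to 7 of these neuronal markers and 1 to 3 of these astrocyte markers passed as lower, with 7 neuronal markers after centring on medians with the pseudocount. On scores as deposited Mog was lower (ratio 0.729, a call that did not hold without N40K 3, control 1 or control 2, highest limma adjusted p = 0.0683), and the microglial genes Csf1r and Itgam were higher with N40K (ratios 2.76 and 2.71). Of these, Csf1r lost its call without control 3 (adjusted p = 0.0536) and Itgam without control 1 or 3 (0.0635). The part of other cells in the scores was not tested. Snrnp70, the mouse gene of U1-70K, had a ratio of 1.08 and did not pass (limma adjusted p = 0.376). The median score over all genes lay between 0.0146 and 0.0163 in the N40K libraries and between 0.0127 and 0.0136 in the control libraries.

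U1 RNA pairs with the last bases of an exon and the first bases of the intron after it, so the exon side of such sites is shown for members whose results are described below. Each stretch is the last 15 bases before the longest intron inside the coding sequence, 5′ to 3′, from the GENCODE M21 transcripts, with the last 3 bases, which face U1, in capitals. The first 5 genes passed the test as higher with N40K, and the last 3 did not pass.
Ube2k: ctgaagagcgagGAG
Ube2ql1: ctggtcaagggcCAG
Ube2e1: tccgccaaactgCAG
Ube2e2: ccctcccaactgTAG
Uba6: tgatggattataCAG
Ube2e3: tcctcctaactgCAG
Ube2b: caccctttgaagATG
Ube2a: ccccgtttgaggATG
The introns after these ends measure 28.4 kb in Ube2k, 34.4 kb in Ube2ql1, 41.1 kb in Ube2e1, 241 kb in Ube2e2, 5.76 kb in Uba6, 41.2 kb in Ube2e3, 3.89 kb in Ube2b and 6.46 kb in Ube2a. Over all coding junctions, 81 of 145 exon ends (55.9%) had the letters AG last in the 15 genes that passed, against 134 of 256 (52.3%) in the 29 that did not, and 56.0% of the 148555 junctions of all matched genes. These shares are a description, since a score per gene does not say which intron it comes from.

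With N40K, 15 of the 44 members rose and 0 fell (limma on log2(score + 0.01), Benjamini-Hochberg adjusted p under 0.05 over all 15705 genes), where 21.5% of all genes rose and 4.11% fell. At an unadjusted p under 0.05, limma also gave 0 falls and 21 rises. Without a pseudocount, a setting chosen after the data were seen, limma gave 15 rises and 0 falls as well, where 22.4% of all genes rose and 4.13% fell. The N40K scores were all above the control scores in 24 of the 44 genes and all below them in 0, against 33.6% and 8.67% of all genes. The ratio of mean scores, N40K over control, had a median of 1.17 among the members and 1.11 among all genes. In these limma fits on scores as deposited, the share that rose was larger than over all genes, and no test of that difference was made. With the pseudocount, that share was smaller among the members than over all genes after each scaling of the libraries described below.

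The members that passed had low scores throughout. All 15 had a mean control score below 0.01, as did 33 of the 44 members and 43.2% of all genes. Their log2 changes on this scale are thus small beside their ratios, which ran from 1.34 to 2.48. Among all genes below 0.01, 2240 of 6781 rose, against 1132 of 8924 at or above 0.01. All N40K scores were above the control scores in 46.7% and 23.7% of these genes. Of the members, 15 of 33 below 0.01 rose and 0 of 11 at or above it, and members were not tested against genes of like score. The balance of rises and falls moved with the scaling of the libraries. When libraries were centred on their medians there were 0 rises and 9 falls, and with quantile normalization 4 and 3. With each library centred on how far its genes typically deviate there were 4 and 1. Over all 15705 genes these scalings gave, in the same order, 1531 rises and 2883 falls, 2022 and 1883, and 2235 and 1518. In each, the share of genes that rose was smaller among the members. On the scale of log2(score + 0.01) a score well below 0.01 moves by less than its own log2 change, while a scaling takes off its full shift, so the same scalings were also run with no pseudocount, which was chosen after the data were seen. They then gave 8 rises and 1 fall, 5 and 3, and 11 and 0, and all 15 genes kept a log2 change above 0 in each. Over all genes the same fits gave 2259 and 1765, 2050 and 1891, and 2533 and 1410. The share that rose was smaller among the members with quantile normalization and larger in the other fits. The members that fell in those fits were Ube2g2 after centring on medians, and Ube2a, Ube2g2 and Ube2v1 after quantile normalization. With the pseudocount, 6 of the 15 turned below 0 after centring on the median, Ube2v2, Ube2e1, Ube2e2, Ube2g1, Ube2h and Ube4b. Leaving out a library gave 4 to 16 rises, with 4 without control 3, 5 without control 2, 9 without control 1, 6 without N40K 3, 7 without N40K 2 and 16 without N40K 1.

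**Figure D1:**
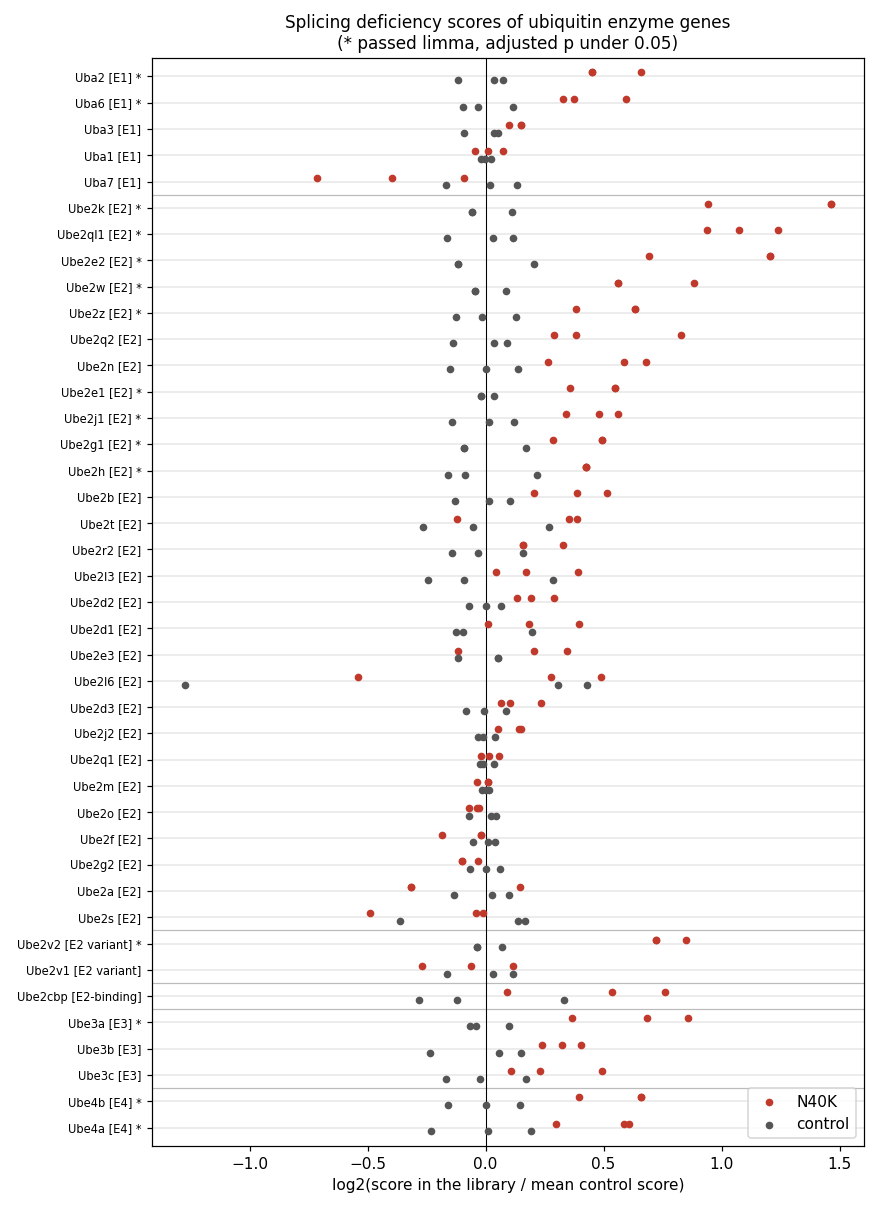
Each row is 1 of 41 members, with its class in brackets, and each point is the log2 of a library's score over the mean control score of that gene, so control points scatter around 0 (N40K red, control grey, 3 libraries each, and equal values overlap). Stars mark the 15 genes that passed, all with N40K points to the right on scores as deposited, although 6 of them turn below 0 when libraries are centred on their median with the pseudocount.

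Of the 6 E1 genes, 2 rose, the larger of which by ratio was Uba2. Uba2 is the catalytic subunit of the enzyme that activates SUMO. Its score was 0.0052, 0.006 and 0.0052 in N40K neurons, against 0.004, 0.0035 and 0.0039 in control neurons. The groups did not overlap, the ratio was 1.44 and the log2 change was 0.16 ± 0.03 (SE, limma adjusted p = 0.0149), and the call did not hold without control 2 or control 3 (adjusted p at most 0.0556). Of the scaled fits, only the median deviation without a pseudocount kept it (limma adjusted p = 0.0415). Sae1, which encodes the other subunit of that enzyme, had a ratio of 1.31 and just missed the threshold (adjusted p = 0.0574).

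Uba6 and Ube2z form a pair in which the E1 Uba6 hands ubiquitin to the E2 Ube2z, and both rose. Uba6 scored 0.0059, 0.0061 and 0.0071 in N40K neurons, against 0.0051, 0.0046 and 0.0044 in control neurons (ratio 1.35, limma adjusted p = 0.0332). Ube2z scored 0.0044, 0.0037 and 0.0044 in N40K neurons, against 0.0031, 0.0026 and 0.0028 in control neurons (ratio 1.47, adjusted p = 0.0177). In both genes every N40K library was above every control library. The call of Uba6 ended with the loss of any library but N40K 1 (highest adjusted p = 0.109), and that of Ube2z without N40K 3, control 2 or control 3 (0.065). Uba6 also lost its call under all 3 scalings, with and without the pseudocount (highest limma adjusted p = 0.21 without it). Among these scaled fits Ube2z kept its call only with the median deviation and no pseudocount (highest limma adjusted p without a pseudocount 0.174). Uba1, the E1 that serves most ubiquitin marking, scored 0.0116, 0.0111 and 0.0107 in N40K neurons and 0.0109, 0.0112 and 0.011 in control neurons. The 2 groups of Uba1 overlapped, with a ratio of 1.01 (adjusted p = 0.928).

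The members that serve NEDD8 and ISG15, which are ubiquitin-like modifiers, did not pass. Uba3, the catalytic subunit of the NEDD8 E1, scored 0.0091 ± 0.000173 in N40K neurons and 0.0083 ± 0.000436 in control neurons (SD, n = 3 each), and the NEDD8 E2 genes Ube2m and Ube2f had ratios of 0.996 and 0.95. Nae1, the partner of Uba3 that the symbol rule leaves out, rose with a ratio of 1.21 (limma adjusted p = 0.0396), a call lost with any library left out (at most 0.112). Ufc1, the E2 of the modifier UFM1 and also outside the symbol rule, fell, at 0.0021, 0.0022 and 0.0027 in N40K neurons and 0.0037, 0.0038 and 0.004 in control neurons (ratio 0.609, adjusted p = 0.0071, at most 0.0335 with a library left out). Uba7, the E1 of ISG15 and an interferon-induced gene, had by far the highest score of the members, with 1.22, 0.99 and 0.793 in N40K neurons and 1.16, 1.32 and 1.43 in control neurons. Its groups overlapped through N40K 1, and the ratio of 0.769, the lowest of the 44, did not pass (adjusted p = 0.173). Ube2l6, the E2 of ISG15, had overlapping groups as well (ratio 1.10).

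Among the 29 E2 genes 9 rose, and the largest ratio of all members was that of Ube2k. Ube2k builds ubiquitin chains by itself and binds huntingtin. It scored 0.0016, 0.0023 and 0.0023 in N40K neurons, against 0.0009, 0.0008 and 0.0008 in control neurons, so that the lowest N40K value stood well above the highest control value. The ratio was 2.48 and the log2 change 0.16 ± 0.03 (SE, limma adjusted p = 0.0106). Ube2ql1, an E2-like gene with a single annotated intron, scored 0.003, 0.0033 and 0.0037 in N40K neurons and 0.0014, 0.0016 and 0.0017 in control neurons (ratio 2.13, adjusted p = 0.0043). Both calls held with each of the 6 libraries left out and after quantile normalization, and both ended after centring on the median with the pseudocount (0.439 and 0.079), with no change of direction. Without a pseudocount both passed under all 3 scalings (highest adjusted p = 0.00495 for Ube2k and 0.00877 for Ube2ql1).

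Ube2v2, the E2 variant also known as Mms2, works as the partner of Ube2n in building a class of ubiquitin chain used in signalling and DNA repair. Its scores were 0.0024, 0.0022 and 0.0022 in N40K neurons and 0.0014, 0.0013 and 0.0013 in control neurons. The spread within each group was a single step or so of the last decimal, and the gene had the smallest adjusted p of the members (ratio 1.70, limma adjusted p = 0.00384, at most 0.0236 with a library left out). With the pseudocount, the call was lost under all 3 scalings (0.0507 for quantile normalization, 0.16 for the median deviation), and centring on medians turned the change below 0. Without a pseudocount it passed under all 3 (highest adjusted p = 0.0422). Ube2n scored 0.0012, 0.0016 and 0.0015 in N40K neurons and 0.0011, 0.0009 and 0.001 in control neurons. Its groups were separate but close, and it just missed the threshold (ratio 1.43, adjusted p = 0.0557). The other variant, Ube2v1, had overlapping groups, with a score of 0.0015 ± 0.0002 in N40K and 0.00157 ± 0.000153 in control neurons.

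The Ube2e genes, a group of E2 enzymes with a long N-terminal extension, parted into 2 that rose and 1 that did not pass. Ube2e1 scored 0.0035, 0.004 and 0.004 in N40K neurons, against 0.0027, 0.0027 and 0.0028 in control neurons (ratio 1.40, limma adjusted p = 0.012), and its call held with each library left out (at most 0.0491). That call was lost under all 3 scalings with the pseudocount, and centring on medians turned the change below 0. Without a pseudocount it was lost only with quantile normalization (0.177). Ube2e2 had the lowest scores of all members, with 0.0007, 0.001 and 0.001 in N40K neurons and 0.0005, 0.0004 and 0.0004 in control neurons (ratio 2.08, adjusted p = 0.0229). At such scores 1 step of the last decimal, 0.0001, is a large part of the value, and the call ended with the loss of any library but N40K 1 (0.0811). Ube2e3 scored 0.0008, 0.0011 and 0.001 in N40K neurons and 0.0008, 0.0009 and 0.0009 in control neurons. The low N40K value of Ube2e3 equalled its low control value (ratio 1.12, adjusted p = 0.513).

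Of the other E2 genes that rose, Ube2j1 sits in the membrane of the endoplasmic reticulum and serves the disposal of misfolded proteins there. It scored 0.0049, 0.0054 and 0.0057 in N40K neurons, against 0.0042, 0.0035 and 0.0039 in control neurons (ratio 1.38, limma adjusted p = 0.022). Ube2w, which can mark the N-terminus of a protein, scored 0.0032, 0.0032 and 0.004 in N40K neurons, against 0.0021, 0.0023 and 0.0021 in control neurons (ratio 1.60, adjusted p = 0.0154). Both had separate groups. The call of Ube2j1 was lost without N40K 2, N40K 3, control 2 or control 3 (highest adjusted p = 0.0721), and that of Ube2w without control 1 or control 3 (0.0598). Of the scalings, only the median deviation kept the call of Ube2j1, with and without the pseudocount. Ube2w lost its call under all 3 scalings with the pseudocount, and without it only with quantile normalization. Ube2h scored 0.003 in all 3 N40K libraries and 0.0026, 0.0021 and 0.002 in control neurons (ratio 1.34, adjusted p = 0.0331), and Ube2g1 scored 0.0013, 0.0015 and 0.0015 in N40K neurons and 0.0012, 0.001 and 0.001 in control neurons (ratio 1.34, 0.0477). These 2 genes stood closest to their control values among the calls. The call of Ube2h held only without control 1 (highest p otherwise 0.106) and that of Ube2g1 only without N40K 1 (0.146). Neither gene passed as higher under any of the 3 scalings, with or without the pseudocount.

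**Figure D2:**
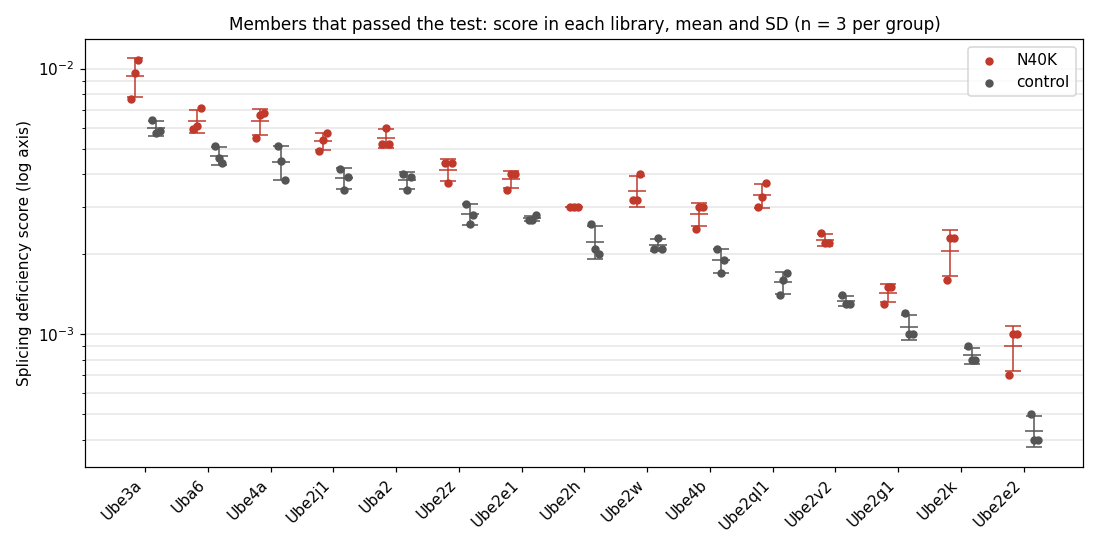
Scores of the 15 genes that passed, on a log axis, in N40K neurons (red, left) and control neurons (grey, right), with each library as a point and mean ± SD as bars (n = 3 per group). Ube3a has the highest scores and Ube2e2 the lowest, and in every gene the N40K points lie above the control points on scores as deposited.

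The remaining 20 E2 genes did not pass. Ube2b, which with its near copy Ube2a acts in DNA damage tolerance, scored 0.029, 0.0329 and 0.0359 in N40K neurons and 0.0254, 0.023 and 0.027 in control neurons. The groups of Ube2b were separate, and it missed the threshold (ratio 1.30, limma adjusted p = 0.0678). Ube2q2 (ratio 1.43, adjusted p = 0.0875), Ube2d2 (1.15, 0.118) and the endoplasmic reticulum E2 gene Ube2j2 (1.08, 0.348) also had separate groups without passing, as did Uba3. Ube2d1 and Ube2d3, which work with many RING ligases, had ratios of 1.15 and 1.10. Ube2l3, a partner of parkin, and Ube2r2, a partner of cullin ligases, had ratios of 1.16 each. Ube2t, of the Fanconi anaemia pathway, had 1.17 and Ube2q1 1.01. Ratios below 1 were found for Ube2a (0.905), Ube2s, which extends chains for the anaphase-promoting complex (0.892), Ube2g2 (0.949), Ube2f (0.95), Ube2o, a large E2 that also acts as its own E3 (0.969), and Ube2m (0.996). Over all members, 20 had overlapping groups, with adjusted p-values from 0.173 to 0.969.

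Among the Ube3 ligases, of the HECT type, Ube3a rose. In neurons Ube3a is transcribed from the maternal allele, and an antisense transcript runs across the paternal copy. Ube3a scored 0.0077, 0.0096 and 0.0108 in N40K neurons, against 0.0064, 0.0057 and 0.0058 in control neurons. All N40K values were above the control values but spread more widely, and the log2 change of 0.28 ± 0.06 (SE) was the largest of the calls on this scale (ratio 1.57, limma adjusted p = 0.029). The call ended with the loss of any library but N40K 1 (highest adjusted p = 0.0936) and held without a pseudocount under all 3 scalings (0.044 at most). The annotation places Snhg14, the host of that antisense transcript, across Ube3a on the other strand, and its reads could count towards the score if strand was not used, which is not stated. Ube3b scored 0.005, 0.0053 and 0.0056 in N40K neurons and 0.0044, 0.0036 and 0.0047 in control neurons, with separate groups, and Ube3c had overlapping groups (ratios 1.25 and 1.22, adjusted p = 0.0856 and 0.198). Ube2cbp had a ratio of 1.40 with overlapping groups (0.186).

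Both E4 genes rose, each with a U-box domain in its protein. Ube4b, part of the fusion gene in the mutant mouse with slow axon degeneration, scored 0.0025, 0.003 and 0.003 in N40K neurons and 0.0021, 0.0017 and 0.0019 in control neurons (ratio 1.49, limma adjusted p = 0.0201). Ube4a scored 0.0055, 0.0067 and 0.0068 in N40K neurons and 0.0051, 0.0045 and 0.0038 in control neurons (ratio 1.42, adjusted p = 0.0467). Neither gene had overlapping groups, although the lowest N40K value of Ube4a was close to its highest control value. The call of Ube4b was lost without N40K 2, N40K 3, control 2 or control 3 (highest adjusted p = 0.0694). It was also lost under all 3 scalings with the pseudocount, and without the pseudocount only with quantile normalization (limma adjusted p = 0.0807). The call of Ube4a ended with the loss of any library but N40K 1 (0.13) and without a pseudocount (0.0522). Ube4a also lost its call under all 3 scalings, with and without the pseudocount (highest limma adjusted p = 0.21 without it). Only 3 of the 21 alternative settings run for Ube4a kept the call.

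Related genes were also set against each other inside each library, where a factor common to all scores of the library cancels, though not a change such as quantile normalization. The 14 pairs were formed after the scores were seen, with the gene of the larger change mostly on top. Their direction and the separation of their groups are therefore a description. The score of Ube2v2 over that of Ube2v1 was 1.85, 1.47 and 1.29 in N40K neurons, against 0.824, 0.929 and 0.812 in control neurons. Ube2v2 thus scored above Ube2v1 in the N40K libraries and below it in the control libraries. Ube2e2 over Ube2e3 was 0.875, 0.909 and 1 in N40K neurons and 0.625, 0.444 and 0.444 in control neurons, and Ube2b over Ube2a was 6.44, 7.31 and 5.79 in N40K neurons and 4.46, 4.51 and 4.5 in control neurons. The difference of the log2 ratios was 0.83, 0.90 and 0.53 in these 3 pairs. Groups were separate in 9 of the 14 pairs, also in Ube2e1 over Ube2e3, Ube2e2 over Ube2e1, Ube2g1 over Ube2g2, Ube2j1 over Ube2j2, Ube2q2 over Ube2q1 and Uba6 over Uba1. They overlapped in the 3 pairs of Ube2d genes, in Ube2l3 over Ube2l6 and in Ube4a over Ube4b. Each separate pair had an exact permutation p of 0.1 (2-sided), the smallest that 3 against 3 allows, and 0.156 after adjustment over the 14 pairs. Because the pairs were chosen with the scores known, these p-values lend no support to a difference between related genes. How often other pairs of genes are separate was not counted.

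**Figure D3:**
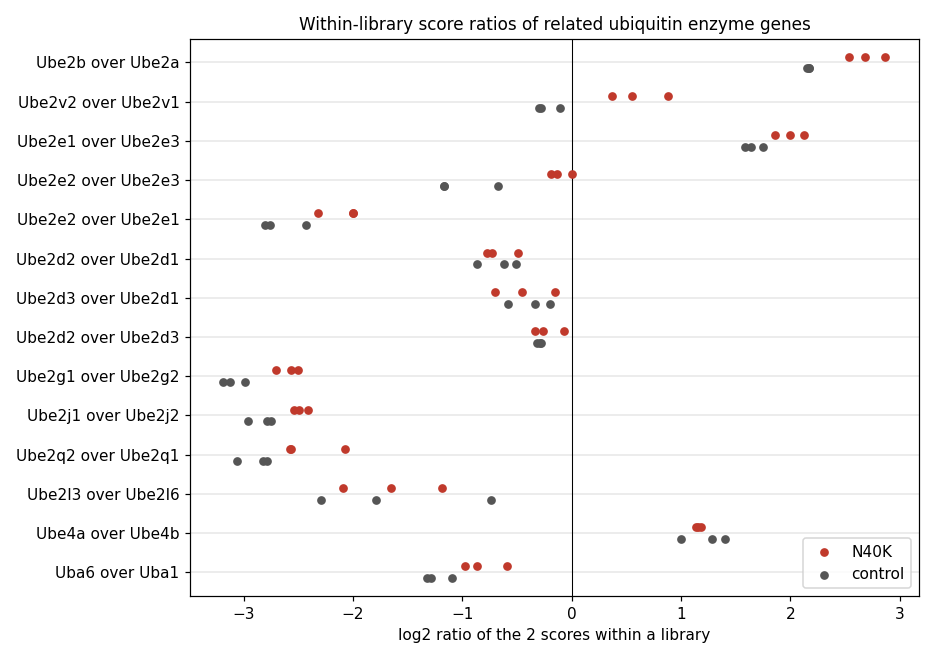
Each row is a pair of related genes and each point the log2 ratio of their scores within a library (N40K red and above, control grey and below, 3 libraries each). The groups are separate in 9 of the 14 pairs, which were formed after the scores were seen, and overlap in all 3 Ube2d pairs.

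Gene span, which the rule did not use, differed in its median between the members that passed and the others. All 44 members were matched to GENCODE M21, and the 15 that passed had a median gene span of 61.8 kb and 6 introns, against 24.5 kb and 7 introns in the other 29 and 25.5 kb in all matched genes. Of 13 members under 20 kb only Ube2z, of 18 kb, rose, where 9.25% of all genes of that span rose. Of 17 members between 20 and 50 kb 6 rose, and of 11 between 50 and 100 kb 7 rose, against 21.5% and 35.7% of all genes of those spans. Over 100 kb 1 of 3 members rose, against 43.8% of all genes of that span. This member was the longest, Ube2e2 at 321 kb, while Ube2cbp (158 kb) and Ube3c (107 kb) did not pass. No test of these shares was made, and the members that passed spanned from 18 kb upwards. Across the 44 members the ratio and the span had a Spearman rho of 0.60 and a Pearson r of 0.58 on log scales, against 0.39 and 0.33 across the 14911 matched genes. The ratio had a relation of like size, with the other sign, to the mean control score, which is also its denominator (rho -0.59 and r -0.60 across the members, -0.32 and -0.29 across all 15705 genes). The median control score was 0.0193 in members under 20 kb and 0.0019 in those between 50 and 100 kb, and the parts of span and control score were not tested apart. The points share the same 6 libraries, and genes are not independent replicates. By annotation 9 of the 15 genes (60%) overlap another gene, a share close to the 59.2% of all matched genes. Ube2e1 overlaps the protein-coding gene Nkiras1 on the other strand and Ube4b 3 antisense transcripts. Uba2, Uba6, Ube2h, Ube2j1, Ube2ql1 and Ube2z overlap none, and all 6 passed in a fit without overlapping genes. That fit leaves the scores and log2 changes of these 6 genes as they were, so it does not test the part of overlap.

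**Figure D4:**
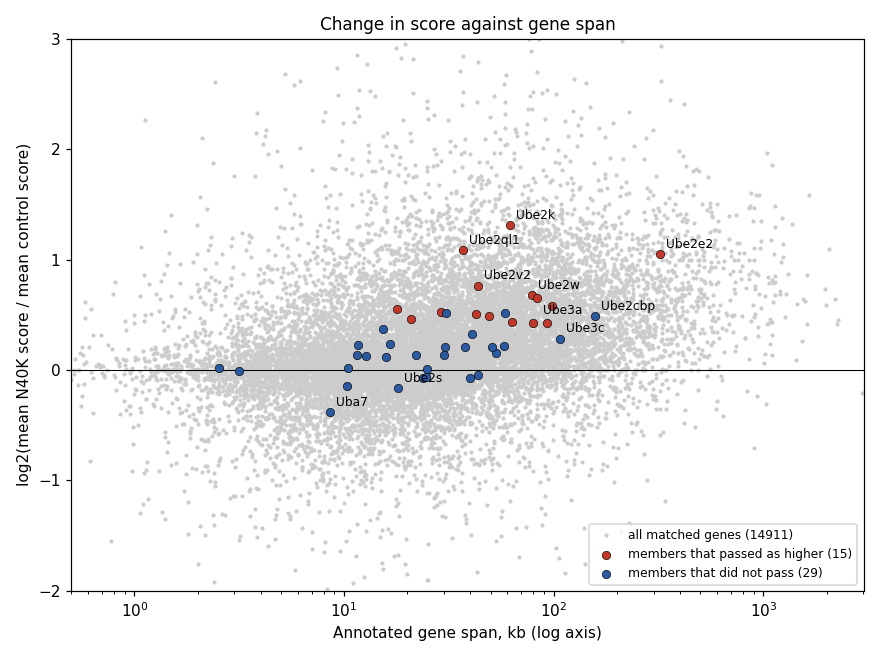
Log2 ratio of mean scores, N40K over control, against annotated gene span on a log axis, for all 14911 matched genes (grey, 70 lie outside the axes) and the 44 members (red where they passed as higher, blue where they did not pass). Red points lie mostly to the right, with a median span of 61.8 kb, against 24.5 kb for the blue points.

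The rest of the ubiquitin system was described from 6 lists of genes outside the symbol rule, written with earlier results of these data known. Of their 100 scored genes 42 rose and 4 fell, where 21.5% of all genes rose and 4.11% fell, and the median ratio was 1.17. Of the 6 lists, that of HECT ligases held the most rises, and the lists were not set against genes of like span or score. Of 21 HECT ligase genes, relatives of Ube3a, 17 rose and 0 fell by limma (0 were lower and 18 higher at an unadjusted p under 0.05), with a median ratio of 1.53. The 3 scalings, each with and without the pseudocount, gave 10 to 12 rises and at most 1 fall. Herc3 scored 0.0336, 0.0353 and 0.039 in N40K neurons, against 0.0128, 0.0119 and 0.012 in control neurons (ratio 2.94, limma adjusted p = 0.00158), the brain ligase gene Hecw1 had a ratio of 2.73 and Hectd2 2.30. All 3 had widely separate groups. Of 16 cullin and cullin-associated genes 7 rose and 0 fell (1 at an unadjusted p under 0.05, Tceb1), with the smallest p-values for the scaffold genes Cul3 (ratio 1.97), Cul4b (1.47) and Cul1 (1.48). Over the same scalings 1 to 5 of them rose and 1 to 4 fell, and Cul3 and Cul4b turned below 0 after centring on medians with the pseudocount. Of 16 genes of U-box and RBR ligases 5 rose, among them Ppil2, Ubox5 and Rnf19a (ratios 2.55, 1.74 and 1.76), and Rnf144b fell (0.57). Over the scalings 3 to 5 of these genes rose and 1 to 4 fell. Of 20 genes of ligases and proteases for ubiquitin-like proteins 8 rose, with the smallest p-values for the SUMO protease genes Senp5 (ratio 3.33) and Senp2 (1.52) and the nucleoporin and SUMO ligase gene Ranbp2 (1.91), and Ddrgk1, of the UFM1 ligase, fell (0.682), a call that held only without control 2 (limma adjusted p at most 0.109). Over the scalings 5 of this list rose and 2 to 5 fell.

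Few of the modifiers themselves passed. Of 17 genes of ubiquitin and ubiquitin-like proteins 1 rose and 1 fell, with a median ratio of 0.918, where 21.5% of all genes rose and 4.11% fell. The fall was that of Nedd8 (ratio 0.804, limma adjusted p = 0.0414), which lost its call with any library left out (at most 0.13). Over the scalings at most 1 modifier gene rose and 5 to 7 fell. The same scalings gave 1531 to 2533 rises and 1410 to 2883 falls among all 15705 genes, and the lists were not tested against those shares. The ubiquitin genes Ubb and Rps27a had ratios of 0.913 and 1.03 and did not pass. Of 10 genes of E1 or E2 type with other names 4 rose and 1 fell, and over the scalings 2 to 3 rose and 2 to 5 fell. Besides Nae1 these were Birc6, a giant E2 that inhibits caspases (ratio 2.29), the autophagy E2 gene Atg10 (2.05), Tsg101, of the ESCRT pathway (2.20), and, as the fall, Ufc1. Tsg101 lost its call without control 2 or control 3 (limma adjusted p at most 0.0548), and Atg10 turned below 0 after centring on medians with the pseudocount.

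**Figure D5:**
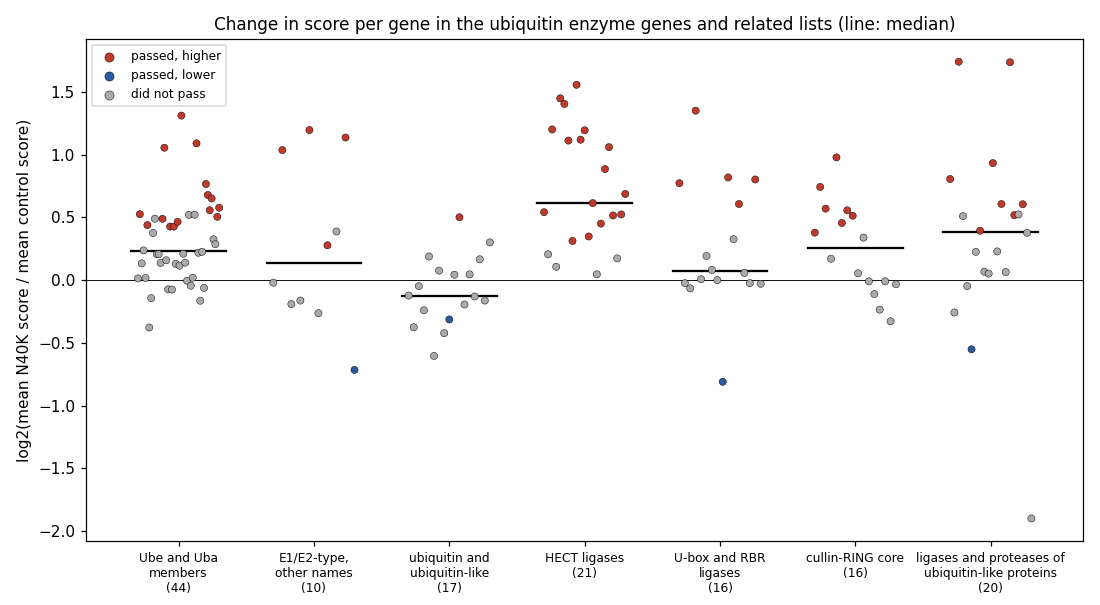
Log2 ratio of mean scores, N40K over control, for each gene of the Ube and Uba members and of 6 related lists, with the number of genes in brackets and a line at the median (red passed as higher, blue passed as lower, grey did not pass). HECT ligases have the highest median ratio, 1.53, and genes of ubiquitin and ubiquitin-like proteins the lowest, 0.918, with scores as deposited. After scaling the libraries 10 to 12 HECT genes passed as higher, against 17 on scores as deposited. In those fits 5 to 7 modifier genes passed as lower, against 1 on scores as deposited.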

How the data were processed

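The authors deposited 1 table in which each gene and library has a splicing score (Sd), made by them as a linear ratio as far as the values show, with 4 decimals. Its formula, annotation, filters and strand handling are not stated in the labels or headers. CASAVA, STAR, BWA, bedtools 2.16.1 and the build mm9 stand in the submitters' processing notes, with no role or order. Per the labels' protocols, stranded poly(A) libraries were read as pairs of 100 nt. Depth is unknown, so no interval that needs it is given.

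Columns were assigned by name, and 0 columns were left unused. The test was limma 3.58.1 (R 4.3.3, eBayes with trend, 2-sided) on log2(score + 0.01), with Benjamini-Hochberg adjustment over 15705 genes. The planned filter, a score above 0 in at least 3 libraries, removed 0 members. "Rose" and "fell" mean an adjusted p under 0.05 on scores as deposited. The members, lists and tests were chosen with earlier results of these data known. By rule, every member is counted, and up to 3 called genes with the smallest p are named per list. Nae1, Tsg101, Rnf144b, Ddrgk1, Sae1, Tceb1, Ubb and Rps27a were named after their values were seen. A few members and list genes enter the counts and are not reported here by name. Gene spans, introns, overlaps and exon ends came from GENCODE M21, on another build than mm9, so no coordinates are printed. 

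On simulated data for N40K against control (15705 genes), the fit found 26% of the changes of log2 size 0.25. It found 64% of those of size 0.5, 76% of size 1 and 90% of size 2. There were 6 false calls in 15505 unchanged genes. The simulated noise was independent between genes and held no shift common to a library, while the scalings of the data removed shifts of 0.13 and 0.07 in log2. The false calls therefore do not cover such a shift. Among the members that rose, all but Ube3a had log2 changes below 0.25, the smallest size simulated, so the shares found do not describe them.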

Additional observations from a re-analysis of the deposited data

How the results depend on the processing

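The count of 15 rises and 0 falls among the ubiquitin enzyme genes was within 1.5 times its value with pseudocounts of 0.001 and 0.1, no filter, robust eBayes, no pseudocount on all genes or on the genes scoring 0.002 or more on average (10 rises), and no pseudocount with centring on the median deviation. It became 9 rises with eBayes without trend, 2 of the 20 members left when the lowest-scoring 25% of genes were dropped, 6 of the 20 left without overlapping or unmatched genes, and 5 with the replicate block. The block rests on shared numbers alone, since same-numbered libraries did not deviate together (correlations -0.07, 0.04 and -0.02). Leaving out a library gave 4 to 16 rises and 0 falls. Centring on medians gave 0 and 9, quantile normalization 4 and 3, centring on the median deviation 4 and 1, and the first 2 without a pseudocount 8 and 1, and 5 and 3. The fits without a pseudocount on all genes and without overlapping genes were chosen after seeing the data, and the cause of these shifts was not tested.

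For all genes, rises numbered 1613 to 3729 and falls 303 to 486 with a library left out. There were 1531 rises and 2883 falls after centring on medians, 2022 and 1883 after quantile normalization, and 2235 and 1518 with the median deviation. Without a pseudocount the same scalings, in that order, gave 1765, 1891 (with 2050 rises) and 1410 falls. The block gave 1770 and 328, the fit without overlapping genes 963 and 219, and the filter 1968 rises. For the 100 pathway genes outside the rule, 25 to 42 rose and 2 to 3 fell with a library left out. The same settings gave 21 rises and 26 falls (medians), 19 falls (quantile), 13 falls (median deviation), 15, 20 (with 26 rises) and 12 falls (the same 3 without a pseudocount), 1 fall (block), 6 and 1 (no overlaps), 22 and 1 (filter), and 2 falls (no trend).

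Of the genes named, those that turned round and passed the threshold before or after were, after centring on medians with the pseudocount, with log2 changes, Ube2e2 -0.067, Ube4b -0.022, Ube2v2 -0.016, Ube2e1 -0.011, Ube2g1 -0.083, Ube2h -0.042, Ube3c -0.076, Ube2r2 -0.10, Ube2l3 -0.11, Ube2e3 -0.12, Cul3 -0.0016, Atg10 -0.039, Cul4b -0.013 and Sae1 -0.080, and, with libraries centred on the median deviation instead, Ube2e2 -0.0024 and Ube2g1 -0.018. Of the 29 members that did not pass, 20 took the other sign in at least 1 alternative without passing there, among them Ube2n at -0.075, Ube2cbp at -0.035 and Ube2q2 at -0.010 after centring on medians. The shifts these settings removed were 0.13 and 0.07 on the log2 scale. Scores have 4 decimals, which limits members with scores near 0.001, and depth is unknown.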
